A study of Rattus norvegicus with 24 samples.

Results

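AH609 and IS141 are 2 agents, known here only by their code names, that were compared directly with each other in cultured rat cortical cells. The comparison used 12 of the 24 libraries of the series: 3 of AH609 in growth medium, 3 of AH609 in glutamate, 3 of IS141 in growth medium and 3 of IS141 in glutamate. Libraries were chosen by the agent and medium in their titles, and each medium was given equal weight. The cells were cultured for 8 days in 6-well plates, then moved either to fresh growth medium or to medium holding 250 μM glutamate, and the plates were scanned for 4 h. RNA was sequenced as a directional library. The labels give no dose, time of addition, structure or target for AH609 and IS141, so an effect of the agent and an effect of its dose cannot be told apart. Neither do they give the age of the animals, their strain or the number of preparations, and nothing says that replicates were separate cultures, so the p-values measure the spread between libraries, which may be technical. The other 12 libraries, of DMSO (the solvent control) and of another agent, AH236, in the same media, did not enter the comparison. They serve below as levels to set beside it, and the AH236 libraries also to sort all tested genes by their response to glutamate. All 24 libraries enter only where a fit of all of them is named.

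Glutamate is the main excitatory transmitter of the brain. It opens ion channels on neurons, and calcium entering through them, above all through NMDA receptors, switches on a wave of activity-dependent transcription that begins with transcription factor genes and goes on to their targets. Long or strong exposure overloads the cell with calcium and damages it, which is called excitotoxicity. Genes that respond to glutamate are therefore a natural axis along which to compare agents in these cultures.

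The 12 libraries held 22509400 to 35496447 counts each, and 15487 genes had enough counts to be tested. Replicates correlated at 0.993 to 0.995 (Pearson's r of log2 values across genes), and the common biological coefficient of variation, the relative spread of a gene between replicates, was 5.84%. The first principal component carried 77.5% of the variance and separated the media. The next carried 3.75% and separated the agents: all 6 AH609 libraries were at 4.30 or above and all 6 IS141 libraries at -3.82 or below. Among the control libraries, DMSO medium replicate 1 stood apart from the other DMSO libraries in medium, and DMSO means in medium are given with and without it. The files pair no gene ID with a name, so markers of neurons, glia or other cells could not be read, and the cell type was not checked. In bulk RNA like this, fewer cells of a type and less RNA per cell cannot be told apart.

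Over both media, AH609 and IS141 cultures differed in many genes by small amounts. With AH609, 915 genes were higher (5.91% of those tested) and 838 were lower (5.41%) than with IS141, by edgeR's quasi-likelihood test at an adjusted p under 0.05. The median difference of the called genes was 1.11-fold for those higher and 1.13-fold for those lower. Differences of at least 1.5-fold were found for 6 higher genes (0.0387% of those tested) and 40 lower genes (0.258%), and differences of at least 2-fold for 2 higher (0.0129%) and 11 lower genes (0.0710%). The larger differences were thus mostly of genes lower with AH609, and in both directions mostly of thinly counted genes. The median level in log2 CPM (counts scaled to a common library size) was 0.42 for the 40 lower genes and -0.66 for the 6 higher. It was 3.95 for all genes tested. DESeq2 called 1 higher and 11 lower at 1.5-fold, and an edgeR fit of all 24 libraries 1 and 8, among 423 calls. The split of all calls moved with the scaling: with library totals in place of TMM factors it was 577 higher and 1212 lower, so that 32.3% of called genes were higher in place of 52.2%. The total also rested on single libraries. It was 911 without AH609 medium replicate 2, 1045 without IS141 medium replicate 2 and 1098 without AH609 glutamate replicate 1, against 1753 in all (11.3% of genes tested).

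Unlike those with the larger differences, the genes called over both media were as a whole expressed well above the average gene. Their median level over the 12 libraries was 6.06 log2 CPM for those higher and 5.35 for those lower, against 3.95 for all genes tested. Among the 3173 genes under 1 log2 CPM, 9 were called higher (0.284%) and 29 lower (0.914%). Among the 1629 genes at 7 log2 CPM or more, 286 were called higher (17.6%) and 131 lower (8.04%), so the balance of directions went with level. The calls thus lay mainly among deeply counted genes. The standard error of a log2 difference over both media had a median of 0.06 over all genes. For 84.3% of genes the 95% interval of the difference lay within 1.5-fold in either direction, and for 95.6% it lay within 2-fold.

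The same genes were then read in the DMSO and AH236 libraries, which had no part in choosing them. In growth medium, the 838 genes lower with AH609 had mean levels of 4.69, 4.66 and 4.73 log2 CPM in the AH609 libraries and 4.95, 5.02 and 4.98 in the IS141 libraries. The DMSO libraries in medium had 4.88, 4.64 and 4.73, and the AH236 libraries 4.60, 4.68 and 4.60. All of these were below every IS141 library, and DMSO replicates 2 and 3 lay at or near the AH609 values. In glutamate, the means were 5.18 ± 0.0286 with AH609, 5.18 ± 0.0709 with DMSO, 5.17 ± 0.0340 with AH236 and 5.35 ± 0.0356 with IS141 (SD, n = 3 libraries each).

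The 915 genes higher with AH609 gave the mirror image. Their mean level in medium was 6.22 ± 0.0300 with AH609, 6.15 ± 0.0459 with DMSO, 6.22 ± 0.0519 with AH236 and 6.03 ± 0.0399 with IS141 (SD, n = 3). In glutamate it was 6.03 ± 0.0277 with AH609, 6.03 ± 0.0675 with DMSO, 6.08 ± 0.0440 with AH236 and 5.88 ± 0.0250 with IS141. In both gene sets and both media, the DMSO and AH236 means lay nearer to AH609 than to IS141. The genes were chosen by the AH609 and IS141 values, which are a description here, and the positions of DMSO and AH236 were not tested. Without DMSO medium replicate 1, the DMSO mean in medium was 4.68 in place of 4.75 for the lower set and 6.16 in place of 6.15 for the higher set.

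**Figure D1:**
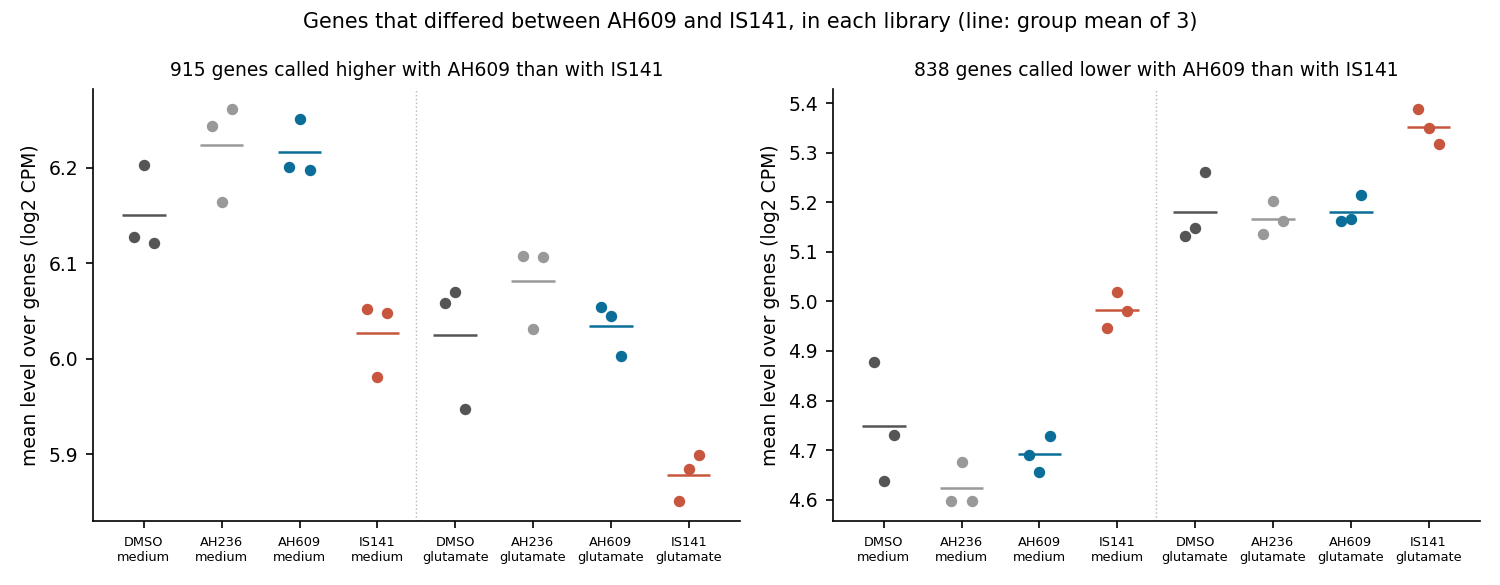
Mean level (log2 CPM) of the 915 genes called higher (left) and the 838 genes called lower (right) with AH609 than with IS141, in each of the 24 libraries by treatment and medium; each point is a library and each line the mean of 3. The axes do not start at 0. IS141 stands below the other treatments at left and above them at right in both media, and DMSO and AH236 lie nearer to AH609.

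Within growth medium alone, 511 genes were higher (3.30%) and 513 lower (3.31%) with AH609 than with IS141. The higher genes differed little: 6 by at least 1.5-fold (0.0387%) and 0 by at least 2-fold in edgeR, with 12 at an unadjusted p under 0.05 and 0 in DESeq2. The lower genes reached further, with 96 at least 1.5-fold lower (0.620%) and 32 at least 2-fold lower (0.207%). The 1024 calls in medium (6.61%) dropped to 299 without AH609 medium replicate 2, 436 without IS141 medium replicate 2, 634 without AH609 medium replicate 1 and 640 without IS141 medium replicate 3. The count at least 1.5-fold lower was 45 without AH609 medium replicate 2 and 60 without IS141 medium replicate 3. A fit of all 24 libraries called 181 genes in medium, 27 of them at least 1.5-fold lower. With library totals, 296 genes were higher and 787 lower.

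In glutamate, few genes separated the agents. There, 24 genes were higher (0.155%) and 29 lower (0.187%) with AH609, 53 in all (0.342%). DESeq2 called 244 genes, edgeR without a filter on low counts 557 and with a replicate block 124, and the fit of all 24 libraries 0, where 873 higher and 722 lower had an unadjusted p under 0.05. None differed by at least 1.5-fold in edgeR, where 70 genes higher and 92 lower by that much had an unadjusted p under 0.05, and DESeq2 called 1 higher and 0 lower. This count was unstable: it ran from 1 without IS141 glutamate replicate 2 to 190 without IS141 medium replicate 2. It was also 2 and 3 without AH609 glutamate replicates 1 and 2, 14 and 147 without IS141 glutamate replicates 1 and 3, and 18 and 34 without AH609 medium replicates 1 and 2. With the 6 libraries of each medium fitted alone, 1000 genes were called in medium and 37 in glutamate. In the main fit the median standard error was 0.08 log2 in medium and 0.09 in glutamate. Both media share 1 estimate of each gene's spread there. The like standard errors and intervals therefore do not show that the spread was alike in the media. The 95% interval of the difference lay within 1.5-fold for 77.5% of genes in glutamate and 75.7% in medium. At 1 log2 CPM and above, where 12314 genes lay, these shares were 94.9% and 92.8%.

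The direction of the differences was partly shared between the media, which have no library in common. Of the 511 genes called higher in medium, 452 (88.5%) were also higher in glutamate, most of them without being called there, and of the 513 called lower in medium 361 (70.4%) were also lower in glutamate. Of all genes tested, 48.1% were lower in glutamate. Over all 15487 genes, the 2 differences had the same sign for 9888 (63.8%) and a Pearson's r of 0.19. This r is across genes, which are not independent replicates, and it is a description. Called in both media were 28 genes, 13 higher in both, 14 lower in both and 1 in opposite directions. The 27 with 1 direction were 27 of the 1024 genes called in medium and 27 of the 53 called in glutamate.

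Glutamate changed about as many genes with either agent. With AH609 it raised 5075 genes (32.8%) and lowered 5187 (33.5%), of which 1462 (9.44%) and 910 (5.88%) by at least 2-fold. With IS141 it raised 4891 (31.6%) and lowered 5109 (33.0%), of which 1256 (8.11%) and 830 (5.36%) by at least 2-fold. The difference between the agents itself differed between the media for 81 genes (0.523%), by the interaction term of the same fit at an adjusted p under 0.05. For 76 of them (0.491%) it was more positive in glutamate, and for 5 (0.0323%) more negative. All 76 were lower with AH609 in medium, 75 of them called there, with a median log2 difference of -0.53. In glutamate their median was 0.08. The interaction is the difference in glutamate minus that in medium, from the same libraries. Both medians of the 76 genes are thus partly fixed by how they were chosen, and are a description. For 18 of the 76 the 2 differences were at least 2-fold apart (0.116%). A fit of all 24 libraries called 1 gene, and the same fit without DMSO medium replicate 1 called 95.

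Genes were next sorted by how glutamate changed them in the 6 AH236 libraries, 3 in medium and 3 in glutamate. None of these is among the 12 libraries compared, but the labels do not say whether the cell preparations were the same. In these, glutamate raised 4934 of 15116 genes tested (32.6%) and lowered 5108 (33.8%). Of the 15487 genes of the AH609 and IS141 comparison, 31.8% were called raised and 32.9% lowered there. This sorting shows whether a gene that differed between the agents is one that glutamate moves.

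Genes lower with AH609 in medium were mostly genes that glutamate raises. Of the 513, 383 (74.7%) were raised in AH236 cultures and 9.75% were lowered. Raised at least 2-fold were 177 (34.5%), against 8.76% of all genes tested. Of the 511 genes higher with AH609 in medium, 56.8% were lowered by glutamate in AH236 cultures and 20.9% were raised. Over both media the shares were less far from those of all genes: 59.7% of the 838 lower genes were raised, and 48.3% of the 915 higher genes were lowered. These shares also go with level. Of the genes at 5 to 7 log2 CPM, where the medians of the called genes lie, 39.9% were raised and 38.2% lowered, and of those at 7 or more, 58.7% were raised and 18.8% lowered. The part of level in the shares was not tested. With library totals, where 19.8% of tested genes were raised and 46.6% lowered, the shares raised were 55.0% of the genes lower in medium and 38.6% of those lower over both media. The shares lowered were then 76.7% of the genes higher in medium and 68.6% of those higher over both media.

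The 96 genes at least 1.5-fold lower with AH609 in medium leaned the same way. Among them, 77 (80.2%) were raised by glutamate in AH236 cultures, 68 of them at least 2-fold (70.8%), with a median log2 glutamate change of 2.24. These were mostly low genes, with a median level of 2.50 log2 CPM. The 3 AH609 libraries lay below the 3 IS141 libraries in medium for 95 of the 96, against 13.2% of all genes, but these genes were called from the same libraries and this count supports nothing. Their median difference was -0.82 log2 in medium and -0.03 in glutamate, where 54 of the 96 were lower with AH609. Their mean level in glutamate was 3.19, 3.20 and 3.28 log2 CPM with AH609 and 3.31, 3.31 and 3.29 with IS141. The groups did not overlap there either, but the difference was -0.08 (SE 0.0290) against -0.93 (SE 0.0769) in medium. Because the genes were chosen by their difference in medium, the size of that difference is partly fixed by the choice. The gap between the media is therefore a description for these genes. Their mean level in medium was 1.12, 1.03 and 1.26 log2 CPM with AH609 and 2.02, 2.02 and 2.14 with IS141. The DMSO libraries had 2.24, 0.99 and 1.03, replicate 1 above every IS141 library and the others at the AH609 level, and the AH236 libraries had 0.77, 0.89 and 0.87. Of the 76 genes of the interaction, 71 (93.4%) were raised by glutamate in AH236 cultures, 55 of them at least 2-fold, with a median log2 change of 2.02. Of the 5 genes that went the other way, 3 were lowered there and 1 was raised.

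The difference in medium was graded with the size of the glutamate response. Genes that glutamate raised by 1 to 2 log2 units in AH236 cultures (879 genes) had a median AH609 minus IS141 difference of -0.11 log2 in medium. The median was -0.19 for the 272 genes raised by 2 to 3 log2 units, -0.31 for the 107 raised by 3 to 4 and -0.50 for the 116 raised by more than 4, of which 87.1% were lower with AH609. At the other end, the 859 genes lowered by 1 to 2 log2 units had a median of 0.08, and the 68 lowered by 2 or more had 0.11. In glutamate the same classes had medians between 0.00 and 0.02, apart from -0.01 for the genes lowered by 1 to 2 log2 units and 0.11 for the 68 lowered most. At 3 log2 CPM and above, the medians in medium were -0.16 for 125 genes raised by 2 to 3 log2 units, -0.35 for 47 raised by 3 to 4 and -0.56 for 47 raised by more than 4. The order in medium was thus also seen among genes at or above that mean over the 12 libraries. The mean takes in the glutamate libraries, so strongly raised genes can pass it and still be thinly counted in medium. ENSRNOG00000007374 passed at 4.09 log2 CPM, with a mean of 2.45 CPM with AH609 in medium. Genes well counted in medium itself were not looked at apart. In glutamate these 3 classes leaned slightly the other way, with medians of 0.03, 0.05 and 0.08. Lower with AH609 there were 34.4%, 29.8% and 31.9% of their genes. Of all genes tested, 48.5% were lower in glutamate at 3 to 5 log2 CPM, 46.3% at 5 to 7 and 40.1% at 7 or more. The part of level in this lean was not tested. Genes are not replicates, and these medians carry no test.

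**Figure D2:**
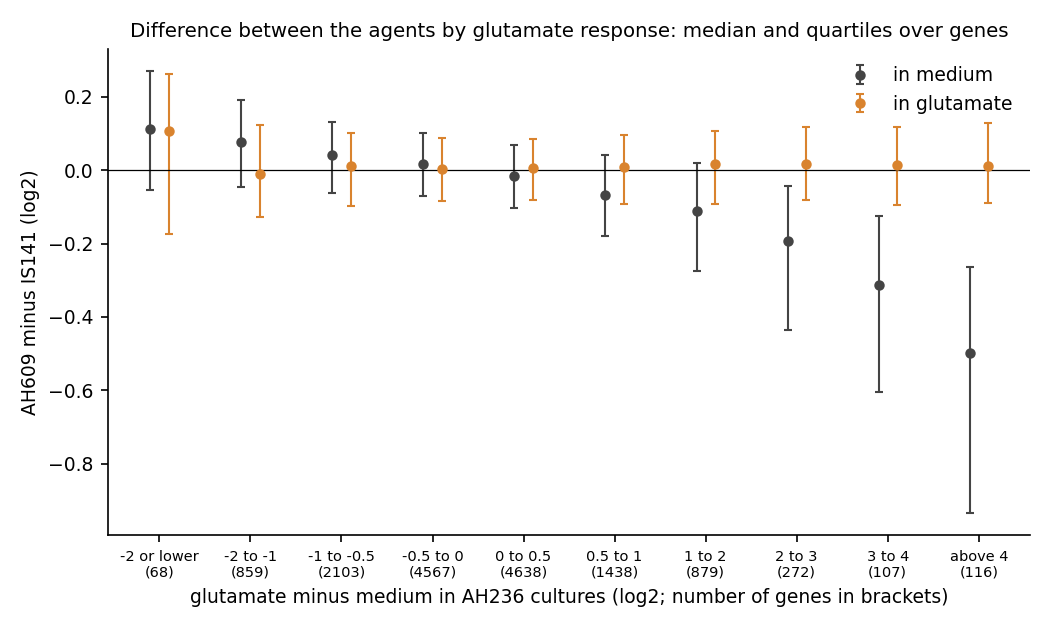
Log2 difference of AH609 minus IS141 (vertical axis) for genes binned by the log2 change with glutamate in AH236 cultures (horizontal axis, number of genes in brackets). Points are medians over genes and bars run from the lower to the upper quartile, dark for medium and orange for glutamate. The medium medians fall from 0.11 to -0.50 from left to right, while the glutamate medians lie near 0 except in the leftmost bin.

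The classes of genes gave the same picture in counts. Of the 1357 genes raised at least 2-fold by glutamate in AH236 cultures, 1029 (75.8%) were lower with AH609 in medium, 177 of them called (13.04%), while 4 were called higher (0.295%). Of all genes tested, 51.5% were lower in medium, 3.31% called lower and 3.30% called higher. In glutamate, 608 (44.8%) were lower, with 5 called higher and 1 called lower, against 48.1%, 0.155% and 0.187% of all genes. The interaction called 55 of the 1357 (4.05%) as more positive in glutamate, against 0.491% of all genes, and 0 as more negative. For 978 of the 1357 (72.1%) the 95% interval of the difference in glutamate lay within 1.5-fold. Of the 919 genes lowered at least 2-fold (5.93% of those tested), 58 were called higher with AH609 in medium (6.31%) and 5 lower (0.544%), and their median difference was 0.08 in medium and -0.01 in glutamate.

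**Figure D3:**
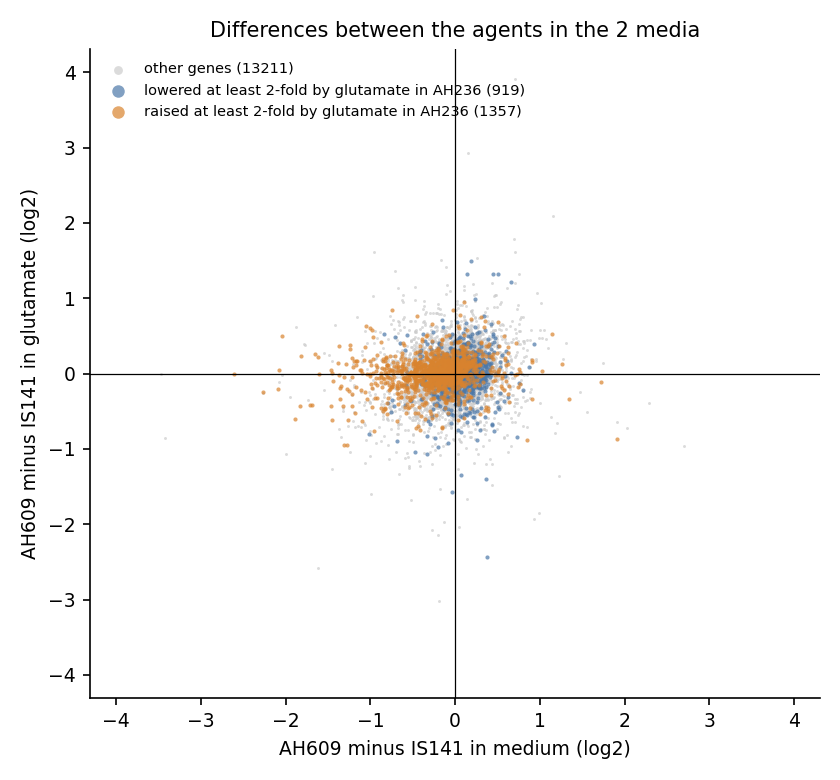
Log2 difference of AH609 minus IS141 in medium (horizontal axis) against the same difference in glutamate (vertical axis), 1 point for each of 15487 genes, coloured by the glutamate response in AH236 cultures. The genes raised at least 2-fold by glutamate (orange) spread to the left of 0 along the horizontal axis, with a median of -0.15 in medium and 0.02 in glutamate.

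For 5022 genes (32.4%) the glutamate change was not called in AH236 cultures. Their median difference was -0.01 log2 in medium and 0.01 in glutamate, and 401 of them were called over both media. The 218 higher were 4.34% of these genes, against 5.91% of all genes tested, and the 183 lower were 3.64%, against 5.41%. The median level of the 5022 genes was 2.59 log2 CPM, against 3.95 for all genes tested. Calls went with level, and the part of level in these shares was not tested. These 401 were chosen by the average of both media, so that 398 of them had the same sign in both is a description.

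Read library by library, the mean level of the 1357 glutamate-raised genes in medium was 1.80, 1.78 and 1.96 log2 CPM with AH609 and 2.01, 2.05 and 2.07 with IS141. The groups did not overlap, with AH609 replicate 3 nearest to IS141. The difference was -0.19 log2 (SE 0.0582), larger than the spread between replicates (SD 0.0957 and 0.0317). In glutamate the levels were 3.62, 3.63 and 3.63 with AH609 and 3.63, 3.63 and 3.59 with IS141, which overlap, and the difference was 0.00 (SE 0.0146). The rise from medium to glutamate was 1.78 log2 with AH609 and 1.58 with IS141, so that the IS141 rise was 88.8% of the AH609 rise, and the gap lay in the starting level. For the 223 genes raised at least 8-fold, the medium levels were 0.01, 0.02 and 0.33 with AH609 and 0.44, 0.57 and 0.61 with IS141, a difference of -0.42 (SE 0.117), and the difference in glutamate was 0.00 (SE 0.0295).

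The controls place these levels. In medium, the 1357 genes stood at 2.23, 1.64 and 1.65 log2 CPM in the 3 DMSO libraries and at 1.63, 1.76 and 1.68 in the AH236 libraries. DMSO replicate 1 was above every IS141 library, and the other two DMSO libraries were below every AH609 library. The AH236 libraries also chose these genes, so their levels are no control. IS141 was 0.20 log2 above the mean of the 3 DMSO libraries and 0.40 above it without replicate 1. AH609 was 0.01 above DMSO with that library and 0.20 above without it. In glutamate, AH609 and IS141 were 0.12 and 0.11 above DMSO. The 919 genes lowered at least 2-fold stood in medium at 2.63, 2.63 and 2.64 with AH609, 2.57, 2.54 and 2.57 with IS141 and 2.65, 2.66 and 2.65 with DMSO. Here IS141 was lowest, by 0.07 log2 against AH609 (SE 0.0117), and the difference in glutamate was -0.01 (SE 0.0178).

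**Figure D4:**
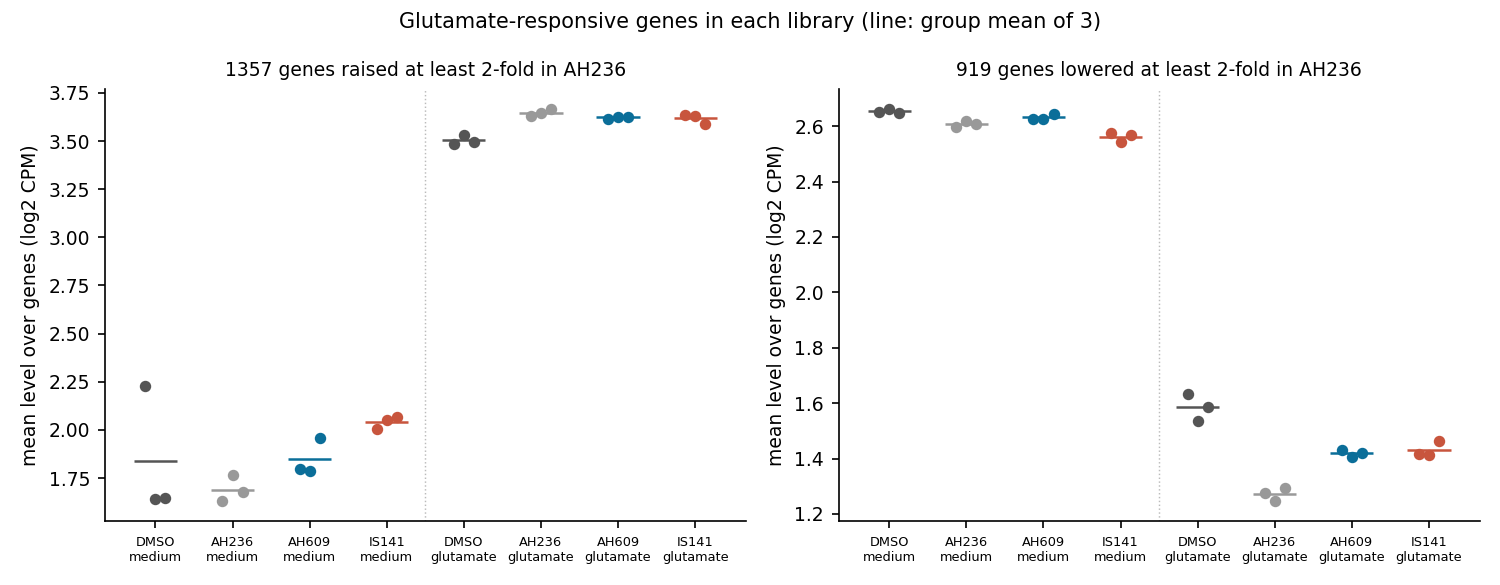
Mean level (log2 CPM) of the 1357 genes raised (left) and the 919 genes lowered (right) at least 2-fold by glutamate in AH236 cultures, in each of the 24 libraries; points are libraries and lines the means of 3. The axes do not start at 0. In medium the 3 IS141 libraries lie above the 3 AH609 libraries at left and below them at right, AH609 and IS141 overlap in glutamate, and DMSO medium replicate 1 at left (2.23) stands apart from the other two.

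Because the IDs carry no names, 2 genes in each direction are given by ID, and nothing is said of their function. They had the largest difference over both media among called genes whose mean reached 1 log2 CPM and whose sign was the same in both media. The calls of all 4 over both media ended in a fit of all 24 libraries, with edgeR adjusted p = 0.366 for ENSRNOG00000006090, 0.166 for ENSRNOG00000007374, 0.0741 for ENSRNOG00000016977 and 0.0739 for ENSRNOG00000025619. ENSRNOG00000006090 was the lower of these with the smaller error. In medium it was thinly counted, with 11, 3 and 15 counts in the AH609 libraries and 23, 27 and 37 in the IS141 libraries. Its level in medium was 0.440, 0.111 and 0.579 CPM with AH609 and 0.759, 1.0 and 1.39 CPM with IS141, and in glutamate 3.96, 3.87 and 3.97 CPM with AH609 and 4.89, 5.64 and 5.33 CPM with IS141. The groups did not overlap in either medium. Of all genes tested, AH609 lay below IS141 without overlap for 13.2% in medium, 9.57% in glutamate and 2.76% in both, and above it for 12.6%, 10.5% and 3.62%. The log2 difference over both media was -0.95 (SE 0.190, edgeR adjusted p = 0.00278), with -1.47 in medium (edgeR adjusted p = 0.0106) and -0.43 in glutamate (edgeR adjusted p = 0.221). DMSO in medium ran from 0.0359 CPM to 2.95 CPM in replicate 1.

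ENSRNOG00000007374 had 1.76, 1.75 and 3.86 CPM with AH609 in medium against 4.03, 8.32 and 8.11 CPM with IS141. In glutamate it had 21.5, 25.7 and 22.4 CPM with AH609 against 38.5, 37.3 and 30.5 CPM with IS141. AH609 replicate 3 came close to IS141 replicate 1 in medium, without overlap. The log2 difference over both media was -1.04 (SE 0.225, edgeR adjusted p = 0.0231), and neither medium alone passed the threshold, at -1.46 in medium (edgeR adjusted p = 0.0664) and -0.62 in glutamate (edgeR adjusted p = 0.248). Leaving out a single library ended the call over both media in 7 of 12 cases, namely AH609 medium replicates 1 and 2, AH609 glutamate replicate 1, IS141 medium replicates 2 and 3 and IS141 glutamate replicates 1 and 2. Glutamate raised both of these genes in AH236 cultures, ENSRNOG00000006090 by 3.52 log2 and ENSRNOG00000007374 by 3.26 log2.

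ENSRNOG00000016977 was higher with AH609. It had 63.8, 58.4 and 53.9 CPM in medium with AH609 against 36.6, 38.1 and 33.5 CPM with IS141, and in glutamate 69.3, 67.1 and 59.2 CPM against 50.1, 43.8 and 35.1 CPM. The groups did not overlap in either medium. The log2 difference was 0.65 over both media (SE 0.0871, edgeR adjusted p = 0.00225), 0.70 in medium (edgeR adjusted p = 0.0112) and 0.60 in glutamate (edgeR adjusted p = 0.0667). The 2 differences were not shown to be unlike (interaction, edgeR adjusted p = 0.941). In medium, DMSO stood at 15.6 CPM in replicate 1 and at 50.8 and 48.1 CPM in the others, and AH236 at 85.9, 75.7 and 79.1 CPM, above both agents. The means in glutamate were 47.0 CPM with DMSO and 113 CPM with AH236, against 65.2 CPM with AH609 and 43.0 CPM with IS141. There DMSO lay nearer to IS141, and AH236 was again above both agents.

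ENSRNOG00000025619 was a thinner case. It had 5.71, 4.83 and 5.25 CPM with AH609 in medium against 4.33, 3.16 and 4.17 CPM with IS141, and in glutamate 13.2, 8.22 and 10.3 CPM against 5.23, 6.29 and 8.25 CPM, where the groups overlap by the width of 1 library. The log2 difference over both media was 0.56 (SE 0.137, edgeR adjusted p = 0.0184), and it was 0.43 in medium and 0.69 in glutamate (edgeR adjusted p = 0.255 and 0.0904). The call ended without AH609 medium replicate 1 or IS141 medium replicate 2.

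**Figure D5:**
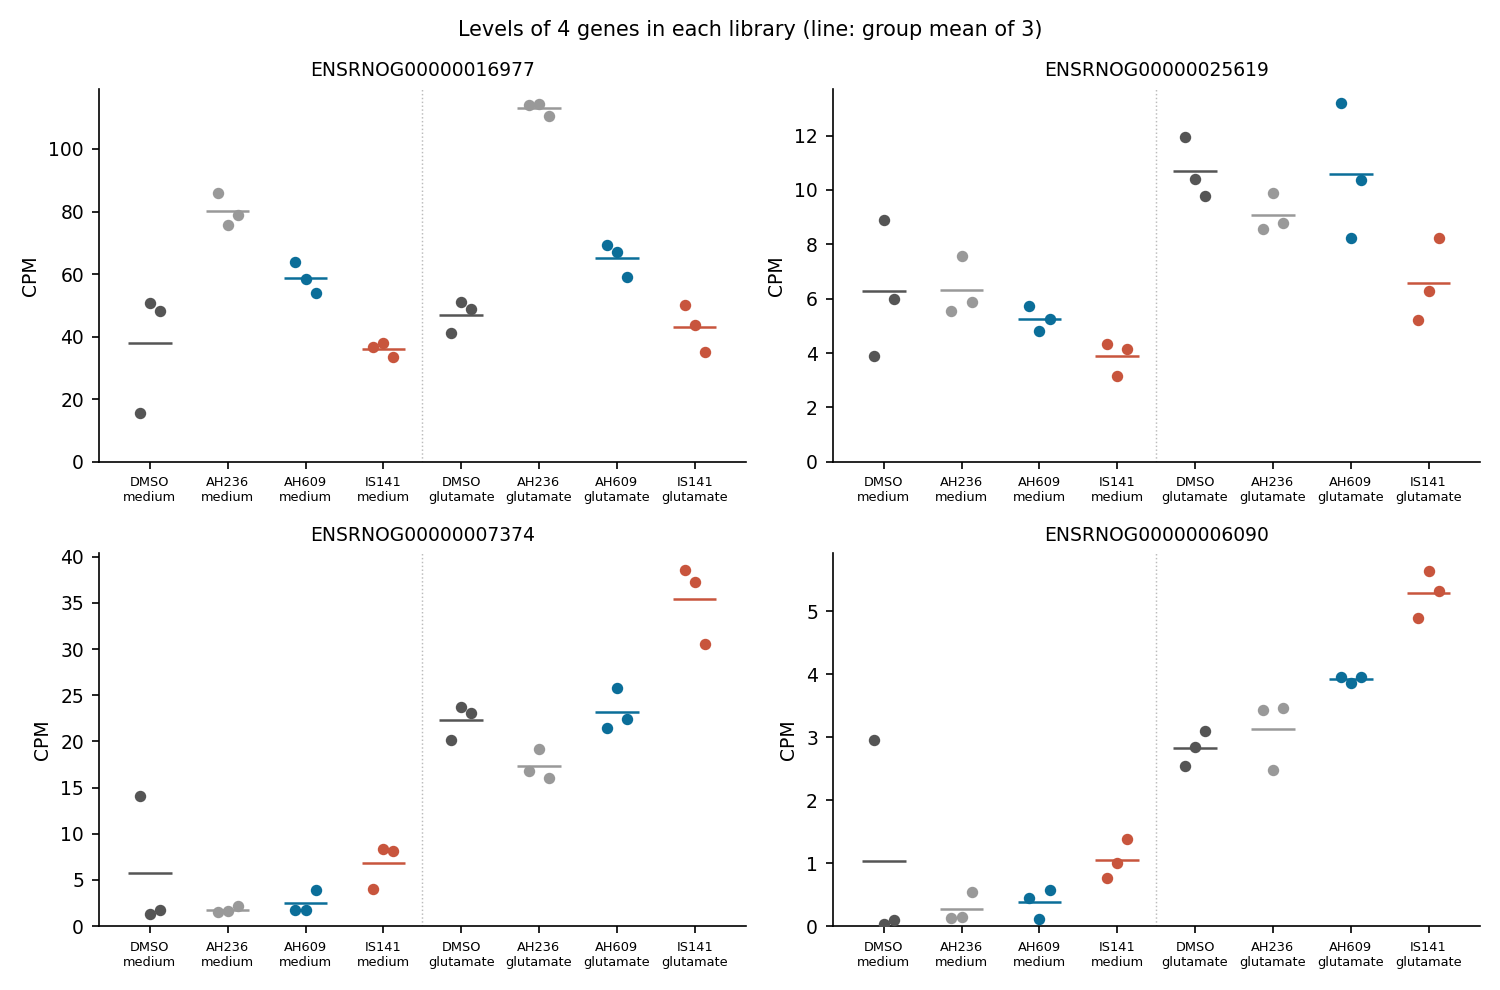
Level (CPM, linear axis from 0) of the 4 genes in each of the 24 libraries by treatment and medium; each point is a library and each line the mean of 3. The AH609 and IS141 points are apart in both media for every gene but ENSRNOG00000025619, where 1 AH609 library and 1 IS141 library in glutamate nearly coincide.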

How the data were processed

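The authors deposited a single table that gives, for 24 libraries, an unnormalized whole-number count for each rat Ensembl gene ID. RNA came from RNeasy Mini columns and libraries from NEBNext Ultra II Directional, per the labels' protocols. Tools named in the submitters' processing notes are RSEM 1.3.3, STAR 2.7.8a, cutadapt 2.3, FastQC 0.11.8 and bcl2fastq, with the build Rnor_6.0. What each did, the strand setting and the gene annotation's release are not given in these sources. The deposited counts may be rounded RSEM estimates, so genes sharing reads with near copies or overlapping genes are uncertain.

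Of 32754 gene rows, 24475 had a count in the 12 libraries and 15487 passed edgeR's filterByExpr by group. edgeR 4.0.16 (R 4.3.3) was fitted to these 12 libraries alone, with 4 group means, TMM scaling and robust quasi-likelihood F tests. The contrasts were AH609 minus IS141 over both media, in each medium, and their difference. P-values were Benjamini-Hochberg adjusted over all genes tested, and a gene was called under 0.05. The standard error is the one implied by the test's p. The glutamate response came from a separate edgeR fit of the 6 AH236 libraries. The AH236 title number 2 was given to a pair of glutamate libraries, and the later is called replicate 3. Levels are log2 CPM with a prior count of 2, or CPM, with 1 scaling for all 24 libraries. Scripts were tested on simulated data. No replicates were duplicates: their lowest chi-square per gene was 6.46.

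The members and lists were chosen with earlier results of these data known. The files do not pair the IDs with names and 0 IDs matched a symbol, so 50 gene lists with 1199 symbols, cell type markers and sequences gave no result. The rule for named genes asked for a symbol, and was applied without it to the comparison over both media, with at most 2 IDs in each direction. It took called genes whose mean reached 1 log2 CPM, with the same sign in both media and the largest log2 difference. Left aside by it were 5 higher and 11 lower genes with larger differences, below that level or of unlike sign. Alternatives were RLE size factors, library totals, DESeq2 1.42.0, a stricter filter (1 CPM in 3 libraries) and none, other sets of libraries, a replicate block and leaving out each library. Leaving out AH236 libraries, and a mean of at least 3 log2 CPM, were added after seeing the data, as were the classes and bins by AH236 response.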

Additional observations from a re-analysis of the deposited data

Results flagged for a closer look

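A difference between the media was found by the interaction test for 81 genes. The difference between AH609 and IS141 was more positive in glutamate than in medium for 76 genes and more negative for 5. Leaving out single libraries moved these counts to 48 to 92 and 1 to 10. In a fit of all 24 libraries the interaction called 0 genes as more positive, where 454 had an unadjusted p under 0.05 and DESeq2 on the 12 libraries called 106. Without DMSO medium replicate 1 in that fit, 85 were called.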

How the results depend on the processing

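No named gene turned direction in the 22 alternatives run for each. Of the 4 medians over genes grouped by the AH236 response, the one at -0.01 in glutamate for the lowered genes moved across 0, to 0.01 with no filter and 0.020 without IS141 glutamate replicate 3, and the other 3 kept their sign. A fit of all 24 libraries gave 423 calls over both media (272 higher and 151 lower, with 1 and 8 at least 1.5-fold) and 181 in medium (98 and 83, with 2 and 27 at least 1.5-fold). It gave 0 higher and 0 lower in glutamate in edgeR, with 873 and 722 at an unadjusted p under 0.05 and 144 and 100 in DESeq2 on the 12 libraries. Its interaction called 1 gene (0 higher, 1 lower, with 454 higher at an unadjusted p under 0.05), and 53.3% and 72.4% of the genes higher over both media and in medium were lowered by glutamate. Without DMSO medium replicate 1 in that fit, glutamate gave 10 calls (5 and 5) and the interaction 10 lower, with 63.1% of lower genes over both media raised and 64.1% of higher genes in medium lowered. DESeq2 gave 244 calls in glutamate, 122 for the interaction (16 lower), 3 at least 1.5-fold higher in medium, 1 and 11 over both media, and 44.1% and 51.8% of higher genes lowered. With library totals 12 genes were higher in glutamate and 2 lower in the interaction, 296 were higher and 787 lower in medium, and 577 were higher over both media. The shares lowered were 68.6% and 76.7%, the shares raised 38.6% and 55.0%, and the medium median of the lowered genes 0.039. This scaling moved the median log2 difference of all genes from -0.006 to -0.035 in medium and from -0.002 to -0.021 over both media. In glutamate it moved from 0.007 to -0.001. Without a filter, glutamate gave 557 calls (358 and 199), the interaction 238 (197 and 41), medium 12 at least 1.5-fold higher and both media 10 and 61, with 55.9% and 69.8% of lower genes raised. A stricter filter left 3 genes at least 1.5-fold higher over both media, and the 6 libraries of glutamate fitted alone gave 12 higher genes. The causes were not tested.

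Leaving out 1 library at a time gave 911 to 2034 calls over both media (419 to 1009 higher, 492 to 1025 lower, 3 to 9 and 28 to 55 at least 1.5-fold) and 299 to 1204 in medium (108 to 604, 191 to 600, 1 to 10 and 45 to 119). In glutamate it gave 1 to 190 (0 to 90 higher, 1 to 100 lower) and in the interaction 53 to 99 (48 to 92, 1 to 10). Shares of higher genes lowered were 43.6% to 51.4% over both media and 53.2% to 61.3% in medium, and shares of lower genes raised 54.7% to 63.4% and 71.7% to 81.2%. The median of the raised genes was -0.19 to -0.13 in medium and 0.00 to 0.03 in glutamate, and of the lowered genes 0.07 to 0.09 and -0.014 to 0.020.

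With the replicate number as a block, glutamate gave 124 calls (74 and 50) and the interaction 11 lower, with no other count past 1.5 times. Whether the numbers pair the libraries is not known. Deviations of same-numbered libraries correlated at -0.06 to 0.16 in 18 pairs, 1 of them over 0.1. Those of other-numbered libraries correlated at -0.15 to 0.16. Of 12 libraries, 3 correlated best with their own number in every other group. Such weak correlations cannot exclude a pairing. Counts per gene list were not run, since no ID had a symbol.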
